A study of Mus musculus with 6 samples.

Results

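Of 24167 genes in the count table of a mouse liver metastasis experiment, 62 encode phase II conjugation enzymes, the enzymes that attach glucuronic acid, glutathione or sulfate to drugs, hormones, bile acids and reactive metabolites. The members were chosen by symbol: every UDP-glucuronosyltransferase (Ugt1a, Ugt2a, Ugt2b and Ugt3a), every glutathione transferase of the alpha, mu, pi, theta, omega, kappa and zeta classes, the microsomal glutathione transferases (Mgst) and every cytosolic sulfotransferase (Sult), leaving out 2 names that mark pseudogenes. The libraries came from metastases formed by 4T1, a triple-negative mammary cancer line of the mouse, either silenced for the palmitoyltransferase Zdhhc17 (shZdhhc17, n = 3) or carrying a scrambled hairpin (shSCR, n = 3). Both cell populations had received a lentiviral hairpin vector and puromycin selection, and 500000 cells were injected hydrodynamically through the tail vein of female BALB/c mice aged 6 to 8 weeks, with metastases dissected under a microscope on day 10. Only the injected cells carried a hairpin, so host cells in the dissected tissue kept an unsilenced Zdhhc17. The labels give 3 samples per group without saying that each is 1 mouse, and p-values cover only the spread among these samples, which may be partly technical.

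UDP-glucuronosyltransferases sit in the endoplasmic reticulum membrane and use UDP-glucuronic acid, glutathione transferases use glutathione, and sulfotransferases use the activated sulfate PAPS. The liver parenchyma is the main site of all 3 reactions, and the conjugates leave hepatocytes through ATP-driven pumps into bile or blood. Many of these genes are known targets of the xenobiotic receptors PXR, CAR and AHR and of the oxidative stress factor NRF2.

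Promoters of 3 members are shown because the results below turn on these genes: Mgst1 was the member with the highest level per length, Gsta3 was among those that were lower relative to hepatocyte RNA, and Gstp1 was higher in every shZdhhc17 library. Each is the 250 bases before the annotated start, from RefSeq on GRCm38.p6, another build than the GRCm39 named for the counts, written 5′ to 3′ on the strand of the gene. Capitals mark matches on either strand to the antioxidant response element TGACNNNGC, the site bound by NRF2, or to GCGTG, the core of the element bound by AHR. Gsta3 (chr1:21240335-21240584, plus strand) and Mgst1 (chr6:138140277-138140526, plus strand, the first of its entries) hold an antioxidant response element, and Gstp1 (chr19:4037913-4038162, minus strand) holds a GCGTG.
Gsta3: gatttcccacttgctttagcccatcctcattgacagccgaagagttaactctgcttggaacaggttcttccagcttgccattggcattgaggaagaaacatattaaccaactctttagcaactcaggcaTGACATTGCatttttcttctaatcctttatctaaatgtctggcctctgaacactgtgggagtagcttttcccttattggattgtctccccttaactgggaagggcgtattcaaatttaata
Mgst1: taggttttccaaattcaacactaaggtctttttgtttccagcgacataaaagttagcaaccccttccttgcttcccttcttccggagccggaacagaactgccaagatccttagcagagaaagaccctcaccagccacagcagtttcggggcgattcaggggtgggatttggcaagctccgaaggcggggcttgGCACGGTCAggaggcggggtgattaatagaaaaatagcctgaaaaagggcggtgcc
Gstp1: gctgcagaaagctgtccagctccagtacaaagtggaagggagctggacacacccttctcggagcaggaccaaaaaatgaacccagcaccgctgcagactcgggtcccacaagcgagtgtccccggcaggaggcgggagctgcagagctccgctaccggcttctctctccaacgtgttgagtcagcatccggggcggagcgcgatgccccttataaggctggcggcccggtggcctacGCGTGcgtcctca
RefSeq promoter entries were found for 53 of the 62 members, 65 entries in all. The antioxidant response element was in 4 of them (6.15%), those of Gsta3, Gstm5, Gstm7 and Mgst1, against 10.2% of the 32851 promoters of the table. GCGTG was in 11 (16.9%), against 28.2% of all promoters. End letters of one motif can belong to the other, and the promoters of the table were not matched for base composition. Only the letters given were searched: the Gstp1 promoter also holds tgagtcagc, which has G in place of C and was not counted. A match describes letters in this window and is no measured binding site.

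Depth was similar across libraries, with 15832837 to 19186615 counted reads each. Zdhhc17 had 25.9, 27.8 and 26.0 CPM (read counts per unit of sequencing depth, scaled by TMM) in shZdhhc17 metastases, against 33.7, 32.4 and 34.2 CPM in shSCR metastases. The groups did not overlap, but the log2 fold change of -0.33 ± 0.11 (SE) did not pass the test (edgeR quasi-likelihood, adjusted p = 0.383). No gene of the 15567 tested passed an adjusted p of 0.05 in that test, while 11.4% were under an unadjusted p of 0.05. With DESeq2, 201 of 17127 genes (1.17%) passed an adjusted p of 0.05, among them none of 56 members. On simulated counts DESeq2 called 43 unchanged genes, against 6 with edgeR. The tissue held much hepatocyte RNA: 23 hepatocyte marker genes summed to 73423, 98577 and 92788 CPM in shZdhhc17 libraries and to 86974, 64774 and 33058 CPM in shSCR libraries. The hepatocyte sum was therefore lowest in shSCR replicate 3, at 0.436 times the mean of the other two shSCR libraries. The 20 mammary carcinoma cell markers summed to 3384 to 4864 CPM in shZdhhc17 and 3216 to 4430 CPM in shSCR metastases. None of them was at 0 in any library. Although these sums overlapped, most single markers leaned lower in shZdhhc17 metastases, 14 of the 18 tested, against 4 that leaned higher. The middle value of their log2 fold changes was -0.26. At an unadjusted p under 0.05, 3 of them were lower and 2 higher (edgeR). Of the other marker lists, the sum of 13 neutrophil genes was higher without overlap (12 of them with a positive log2 fold change), at 566 to 1112 CPM in shZdhhc17 against 240 to 446 CPM in shSCR metastases. The sum of 12 stellate cell and fibroblast genes was lower without overlap, at 3329 to 4014 CPM in shZdhhc17 against 4100 to 7136 CPM in shSCR metastases, while single genes went both ways, 6 with a positive and 6 with a negative log2 fold change. The ribosomal RNA gene Rn18s-rs5 took 0.239% to 0.352% of the counts in shZdhhc17 libraries, against 2.54%, 0.194% and 0.412% in shSCR replicates 1, 2 and 3, so shSCR replicate 1 stood apart. In such bulk tissue, fewer cells of a type and less RNA per cell cannot be told apart.

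No conjugation enzyme differed between shZdhhc17 and shSCR metastases past the threshold. Of the 62 members, 54 had enough counts to be tested, 29 of them with a log2 fold change above 0 (53.7%, against 50.3% of all genes tested) and 25 below it. Their median log2 fold change was 0.04, against 0.002 for all genes tested, and the smallest adjusted p of a member was 0.331 (edgeR). At an unadjusted p under 0.05 there were 3 members (5.56%, against 11.4% of all genes), with Ugt1a7c higher (1 member, against 4.72% of all genes) and Gstt3 and Sult2a8 lower (2 members, against 6.71%). Dropping shZdhhc17 replicate 1, 2 or 3 left 5, 6 or 2 such members, where 14%, 6.36% or 5.9% of all genes were under that p. Dropping shSCR replicate 1, 2 or 3 left 5, 3 or 10, where 18.2%, 8.16% or 7.63% of all genes were. The groups did not overlap for 4 tested members: Ugt1a7c and Gstp1 were higher in every shZdhhc17 library (7.48% of all genes were), and Gstt3 and Mgst2 were lower in every shZdhhc17 library (9.62% of all genes were). The 8 members left untested, Ugt1a2, Ugt1a10, Gsta1, Gsta5, Sult2a7, Sult4a1, Sult6b1 and Sult6b2, lay between 0 and 1.31 CPM in every library. The authors' deposited table also lists no member at a q-value under 0.05, which 0.844% of all its genes reached, and its smallest q-value for a member is 0.115, for Gstt3. At an unadjusted p under 0.05 the authors' deposited table has 6 members (9.68%, against 8.21% of its genes): Gstt3, Ugt1a7c, Ugt1a6b, Gstp3, Sult2a8 and Gsta1.

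All 62 members together had 2206, 3917 and 3205 CPM in shZdhhc17 metastases, against 4122, 2910 and 1562 CPM in shSCR metastases. The group means, 3109 ± 859 CPM in shZdhhc17 and 2865 ± 1281 CPM in shSCR metastases (SD, n = 3 each), differed by less than either spread. Each of the 12 family sums overlapped between the groups. The lowest library was shSCR replicate 3 for 31 of the 54 tested members (57.4%, against 24.4% of all genes), and shZdhhc17 replicate 1 for 13 (24.1%, against 16.6%). The highest was shZdhhc17 replicate 2 for 18 members and shSCR replicate 1 for another 18 (33.3% each, against 16.8% and 12.7% of all genes). Relative to the mean of the other two shSCR libraries, shSCR replicate 3 stood at a median of 0.458 over the tested members and at 1.02 over all genes, and 28 members were under 0.5.

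**Figure D1:**
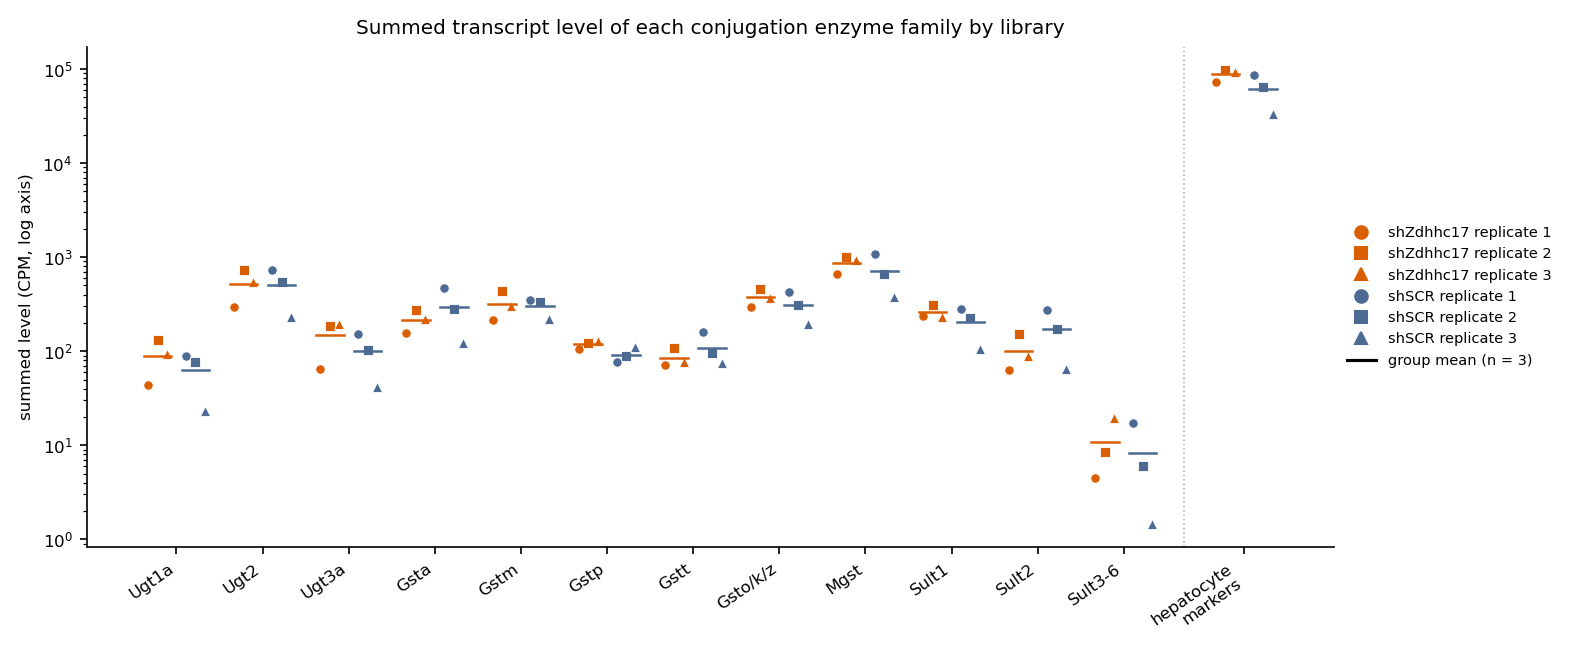
Summed level of each conjugation enzyme family, and of 23 hepatocyte marker genes at the right, in CPM on a log axis, with 1 point per library and a line at the group mean (n = 3 per group; shZdhhc17 orange, shSCR blue). The summed hepatocyte markers were lowest in shSCR replicate 3, as were most families. Gstm, Gstt and Sult2 were lowest in shZdhhc17 replicate 1, and the pi class (Gstp) in shSCR replicate 1.

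Among the glucuronosyltransferases, the 8 Ugt1a genes share their last exons, and each starts from a first exon of its own. From 52.1% to 79.8% of the 50-base stretches of each Ugt1a gene also occur in another gene, so counts of single Ugt1a members are uncertain. Ugt1a1, the enzyme that glucuronidates bilirubin, was the most abundant per length at 21.8 CPM per kilobase. It had 29.9, 87.4 and 59.3 CPM in shZdhhc17 metastases, against 53.4, 47.7 and 13.3 CPM in shSCR metastases. The groups overlapped widely, with a log2 fold change of 0.63 ± 0.55 (SE). Ugt1a6b, which conjugates small planar phenols, had 6.60, 20.8 and 19.5 CPM in shZdhhc17 metastases, against 10.6, 9.52 and 2.40 CPM in shSCR metastases, a log2 fold change of 1.06 ± 0.59. Ugt1a7c, a minor product of the locus, had 1.95, 3.22 and 3.43 CPM in shZdhhc17 metastases, against 1.36, 1.41 and 1.34 CPM in shSCR metastases. Every shZdhhc17 library was above every shSCR library, and the shSCR libraries, replicate 3 included, lay close together. Its log2 fold change was 1.06 ± 0.30, with an unadjusted p of 0.00906 and an adjusted p of 0.331 (edgeR). Of the 6 tested Ugt1a genes, 4 lay above 0 and 2 below it, and their median was 0.49 on the log2 scale.

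The Ugt2 genes, which conjugate steroids, bile acids and drugs, took the largest share of the glucuronosyltransferase counts. Ugt2b36 stood first of them per length at 70.2 CPM per kilobase, ahead of Ugt2b5 at 47.5. Ugt2b36 had 97.0, 223 and 153 CPM in shZdhhc17 metastases, against 194, 144 and 55.8 CPM in shSCR metastases. Ugt2b34 had 67.1, 166 and 142 CPM in shZdhhc17 metastases, against 162, 141 and 63.8 CPM in shSCR metastases. In both genes the groups overlapped and the lowest library was shSCR replicate 3. Their log2 fold changes were 0.26 ± 0.47 and 0.03 ± 0.42, and the median over the 7 Ugt2 genes was 0.03, with 4 positive and 3 negative. The lowest-expressed, Ugt2b37, had 0.252, 1.79 and 0.528 CPM in shZdhhc17 metastases, against 2.07, 3.19 and 0.614 CPM in shSCR metastases, a log2 fold change of -1.18 ± 0.78.

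The Ugt3a enzymes take other sugars than glucuronic acid, as known from the human proteins. Ugt3a2 had 61.5, 171 and 183 CPM in shZdhhc17 metastases, against 144, 96.6 and 41.0 CPM in shSCR metastases, and Ugt3a1 had 3.33, 16.1 and 12.5 CPM against 10.6, 6.54 and 1.06 CPM. Both had a positive log2 fold change, 0.56 ± 0.52 for Ugt3a2 and 0.81 ± 0.79 for Ugt3a1, with groups that overlapped.

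Glutathione transferases of the alpha class (Gsta) detoxify lipid peroxidation products and, in mouse liver, aflatoxin epoxide, the reaction for which Gsta3 is known. Gsta3 had 136, 244 and 205 CPM in shZdhhc17 metastases, against 433, 259 and 104 CPM in shSCR metastases. The range of the shSCR libraries enclosed that of the shZdhhc17 libraries, and the log2 fold change was -0.44 ± 0.47. Without shSCR replicate 3 it was -0.83, and without shSCR replicate 1 it was 0.10. Gsta4, which conjugates the lipid aldehyde 4-hydroxynonenal, had 18.2, 26.1 and 13.0 CPM in shZdhhc17 metastases, against 37.3, 18.7 and 14.4 CPM in shSCR metastases. Gsta2 had 0.440, 2.81 and 0.989 CPM in shZdhhc17 metastases, against 3.71, 2.51 and 1.90 CPM in shSCR metastases, a log2 fold change of -0.93 ± 0.61. The 3 tested alpha members all had a negative log2 fold change. Gsta2 shares 49.8% of its 50-base stretches with other genes and the untested Gsta1 90.5%, so these counts may be split between copies.

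The mu class (Gstm) handles epoxides and other electrophiles. Gstm1 came second of all members per length, at 144 CPM per kilobase. It had 140, 313 and 196 CPM in shZdhhc17 metastases, against 232, 244 and 145 CPM in shSCR metastases, and its log2 fold change was 0.06 ± 0.32. Gstm2 had 22.2, 44.7 and 30.9 CPM in shZdhhc17 metastases, against 41.2, 36.3 and 24.3 CPM in shSCR metastases. Gstm7 had 13.1, 24.8 and 21.3 CPM in shZdhhc17 metastases, against 18.3, 13.4 and 10.2 CPM in shSCR metastases, a log2 fold change of 0.50 ± 0.29. In all 3 genes the groups overlapped, and the class had 4 positive and 3 negative log2 fold changes with a median of 0.06.

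In the pi class (Gstp) the sum was highest, not lowest, in replicate 3 among the shSCR libraries, at 110 CPM there against 77.0 and 89.8 CPM in the other two. Gstp1, the main pi enzyme, widely present outside the liver and in tumours, had 79.8, 92.8 and 82.8 CPM in shZdhhc17 metastases, against 56.9, 71.7 and 78.1 CPM in shSCR metastases. The groups did not overlap, by a narrow margin between shZdhhc17 replicate 1 and shSCR replicate 3, and the log2 fold change of 0.31 ± 0.15 did not pass (edgeR, adjusted p = 0.484). Gstp3 had 24.2, 29.6 and 45.2 CPM in shZdhhc17 metastases, against 19.3, 16.7 and 29.9 CPM in shSCR metastases, a log2 fold change of 0.59 ± 0.29. Gstp2 ran at 0.818, 0.836 and 0.857 CPM in shZdhhc17 metastases, against 0.818, 1.46 and 1.90 CPM in shSCR metastases, a log2 fold change of -0.73 ± 0.38. Gstp1 and Gstp2 are near-identical copies, and 33.7% of the 50-base stretches of Gstp1 are found in Gstp2.

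The theta class (Gstt) conjugates small halogenated compounds. Gstt1 had 46.7, 70.8 and 56.9 CPM in shZdhhc17 metastases, against 116, 69.3 and 46.7 CPM in shSCR metastases, a log2 fold change of -0.41 ± 0.33. Gstt3 had 9.87, 10.99 and 6.59 CPM in shZdhhc17 metastases, against 24.6, 12.5 and 16.6 CPM in shSCR metastases. Every shZdhhc17 library lay below every shSCR library, with shZdhhc17 replicate 2 and shSCR replicate 2 close to each other. Its log2 fold change was -0.97 ± 0.30, with an unadjusted p of 0.0123 and an adjusted p of 0.353 (edgeR). Gstt2 had 15.3, 26.0 and 13.5 CPM in shZdhhc17 metastases, against 18.1, 13.3 and 10.8 CPM in shSCR metastases, a log2 fold change of 0.38 ± 0.30. The class therefore held both directions.

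Gstz1, which is the maleylacetoacetate isomerase of tyrosine breakdown, and Gsto1, a thiol transferase that also reduces dehydroascorbate, were the main members of the small classes. Gstz1 had 199, 353 and 280 CPM in shZdhhc17 metastases, against 316, 213 and 122 CPM in shSCR metastases, a log2 fold change of 0.35 ± 0.36. Gsto1 had 68.5, 63.0 and 51.6 CPM in shZdhhc17 metastases, against 65.4, 67.2 and 55.1 CPM in shSCR metastases, a log2 fold change of -0.04 ± 0.15. Gsto1 varied by a factor of 1.33 between its lowest and highest library, the smallest of the tested members. The others that varied by less than a factor of 2 were Gstm5, Gstp1, Sult1c2, Mgst3 and Gstm4, while 17 members varied by a factor of 5 or more.

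Mgst1, the membrane-bound enzyme of the endoplasmic reticulum and outer mitochondrial membrane, had the highest level per length of all members, at 374 CPM per kilobase. It had 619, 967 and 906 CPM in shZdhhc17 metastases, against 1046, 637 and 345 CPM in shSCR metastases. The groups overlapped, with the highest and the lowest value both in shSCR, and the log2 fold change was 0.30 ± 0.40. Mgst3 had 32.6, 26.0 and 20.8 CPM in shZdhhc17 metastases, against 30.6, 19.5 and 19.1 CPM in shSCR metastases, a log2 fold change of 0.20 ± 0.24. Mgst2, which can make leukotriene C4, was lower in every shZdhhc17 library. It had 5.41, 4.00 and 6.33 CPM in shZdhhc17 metastases, against 6.49, 6.85 and 10.9 CPM in shSCR metastases, where it was highest in shSCR replicate 3. Its log2 fold change of -0.63 ± 0.28 did not pass (edgeR, adjusted p = 0.457).

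**Figure D2:**
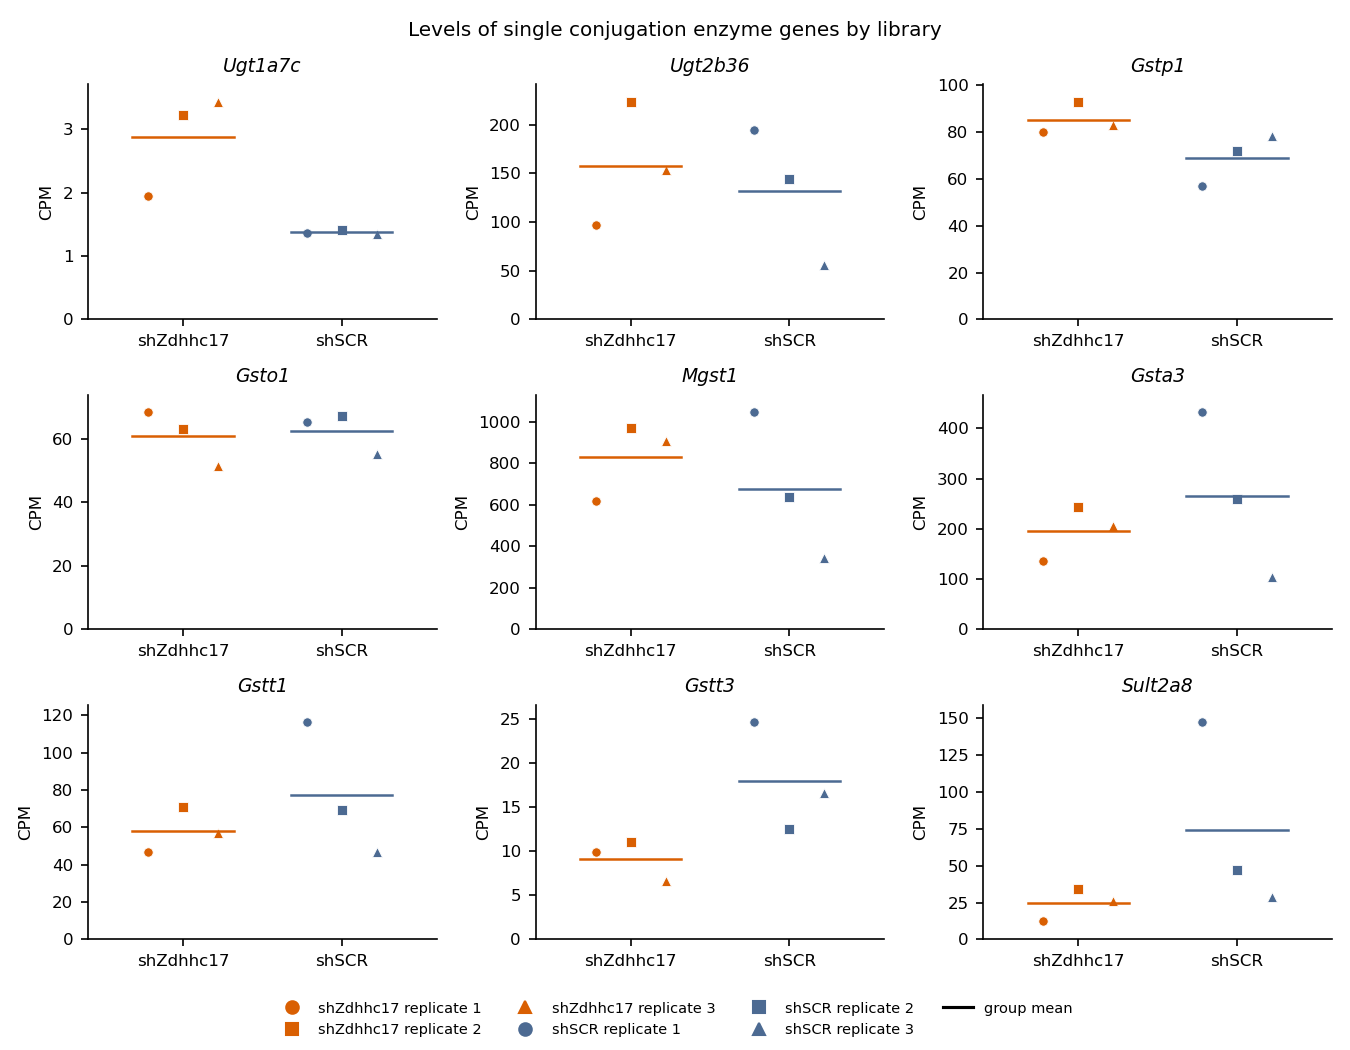
Level of 9 members in CPM by library, with a line at the group mean and axes that start at 0 (n = 3 per group; shZdhhc17 orange at the left, shSCR blue at the right). Ugt1a7c and Gstp1 lay higher and Gstt3 lower in every shZdhhc17 library, Gsto1 was nearly flat, and Mgst1, Gsta3 and Ugt2b36 were lowest in shSCR replicate 3.

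Sulfotransferases of the Sult1 family act on phenols, catecholamines and estrogens. Sult1a1, the main phenol sulfotransferase, had 191, 240 and 181 CPM in shZdhhc17 metastases, against 203, 162 and 83.3 CPM in shSCR metastases, a log2 fold change of 0.45 ± 0.31. Sult1d1, which sulfates catecholamines in mice, had 36.3, 57.9 and 42.1 CPM in shZdhhc17 metastases, against 63.3, 59.2 and 16.9 CPM in shSCR metastases, a log2 fold change of -0.03 ± 0.45. Sult1e1, the estrogen sulfotransferase, was low, with 2.77, 1.37 and 1.05 CPM in shZdhhc17 metastases, against 0.872, 1.10 and 0.112 CPM in shSCR metastases. In all 3 genes shSCR replicate 3 was the lowest library, and the log2 fold change of Sult1e1 was 1.30 ± 0.68. Of the 5 Sult1 genes, 4 had a positive log2 fold change.

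The Sult2 family sulfates steroids and bile acids, and its members lay mostly below 0, with 6 of 8 log2 fold changes negative and a median of -0.28. Sult2a8, a bile acid sulfotransferase of mouse liver, had 12.7, 34.3 and 26.2 CPM in shZdhhc17 metastases, against 148, 47.0 and 29.1 CPM in shSCR metastases. Its highest library, shSCR replicate 1, which also held the most Rn18s-rs5, stood far above the other 5, and shZdhhc17 replicate 2 was above shSCR replicate 3. The log2 fold change was -1.61 ± 0.62, with an unadjusted p of 0.0349 and an adjusted p of 0.409 (edgeR), and without shSCR replicate 1 it was -0.64. Sult2a1, which sulfates dehydroepiandrosterone, had 24.2, 65.0 and 31.7 CPM in shZdhhc17 metastases, against 66.2, 83.9 and 14.6 CPM in shSCR metastases, a log2 fold change of -0.44 ± 0.62. Sult2a1 shares 33.2% of its 50-base stretches with other genes, and Sult2a8 shares 1.72%. Of the remaining families, Sult3a1, an amine sulfotransferase in mice, had 3.46, 6.87 and 15.0 CPM in shZdhhc17 metastases, against 14.5, 3.71 and 0.949 CPM in shSCR metastases. Sult3a2 had 0.189, 0.657 and 3.56 CPM in shZdhhc17 metastases, against 0.872, 0.628 and 0.112 CPM in shSCR metastases. Both varied more than 10-fold over the libraries, with log2 fold changes of 0.40 ± 0.89 and 1.42 ± 1.03.

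Because most members were lowest in the library with the least hepatocyte RNA, their levels were also set against it. The hepatocyte markers leaned higher in shZdhhc17 metastases, with a mean sum of 88263 CPM against 61602 CPM and groups that overlapped. Of the 23 markers 20 had a positive log2 fold change, with a median of 0.37, against 50.3% of all genes. So had 13 of 16 pericentral markers, with a median of 0.55. The 14 periportal markers did not lean, with 7 positive and 7 negative log2 fold changes and a median of 0.04. At an unadjusted p under 0.05, 1 periportal marker was higher and 2 were lower (edgeR). The members' own sum was not lower before division, at 3109 ± 859 CPM in shZdhhc17 against 2865 ± 1281 CPM in shSCR metastases (SD). Per 1000 CPM of the 23 hepatocyte markers, all members together had 30.0, 39.7 and 34.5 CPM in shZdhhc17 metastases, against 47.4, 44.9 and 47.3 CPM in shSCR metastases. The groups did not overlap in this ratio, and the shSCR libraries lay close together, at 46.5 ± 1.39 (SD, n = 3), against 34.8 ± 4.85 in shZdhhc17 metastases. The sums of the alpha and theta glutathione transferases, of the microsomal enzymes, of Gsto, Gstk and Gstz together, and of Sult2 were lower in every shZdhhc17 library on this scale. The other 7 family sums overlapped. Against pericentral markers the alpha, theta and Sult2 sums were again lower without overlap, as was Ugt2, while the microsomal sum and that of Gsto, Gstk and Gstz overlapped. The alpha class had 2.11, 2.77 and 2.37 CPM per 1000 in shZdhhc17 metastases, against 5.45, 4.34 and 3.66 in shSCR metastases. Sult2 had 0.856, 1.54 and 0.952 CPM per 1000 in shZdhhc17 metastases, against 3.16, 2.69 and 1.94 in shSCR metastases. The theta class had 0.978, 1.09 and 0.829 CPM per 1000 in shZdhhc17 metastases, against 1.83, 1.47 and 2.24 in shSCR metastases. These differences were the largest among the families, while Mgst was separated by a narrow margin.

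**Figure D3:**
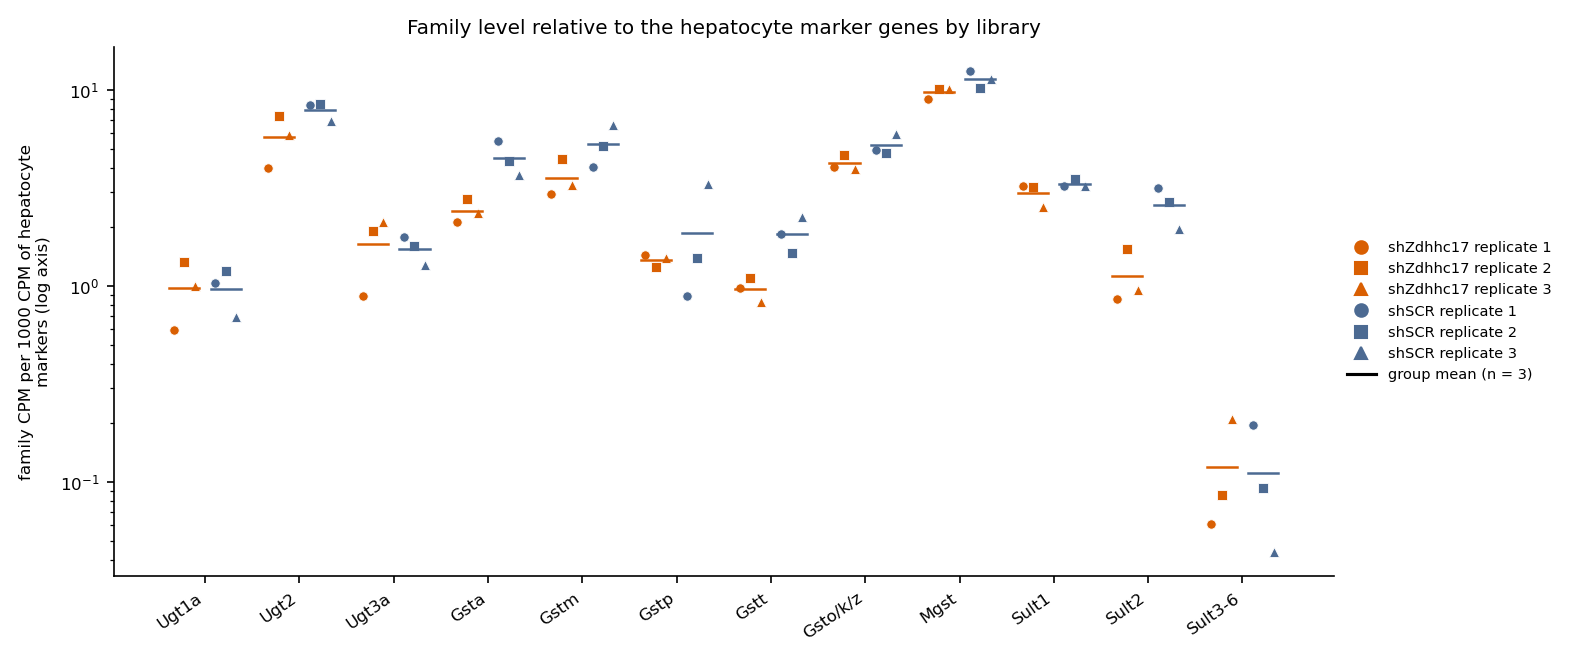
Summed level of each family in CPM per 1000 CPM of 23 hepatocyte markers, on a log axis, with 1 point per library and a line at the group mean (n = 3 per group; shZdhhc17 orange, shSCR blue). The Gsta, Gstt and Sult2 sums lay lower in every shZdhhc17 library than in every shSCR library, and the Ugt1a and Ugt3a sums overlapped.

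For single genes on this scale, 16 of the 54 tested members (29.6%) were lower in every shZdhhc17 library, against 13.3% of all genes, and none was higher, against 0.668% of all genes. The hepatocyte markers themselves were lower without overlap in 6 of 23 (26.1%), and 3 of 14 periportal genes (21.4%) and 2 of 16 pericentral genes (12.5%) were. The markers are divided here by their own sum, which makes some of them lie below it. Gsta3 had 1.85, 2.47 and 2.21 CPM per 1000 in shZdhhc17 metastases, against 4.98, 4.00 and 3.15 in shSCR metastases. Gstt1 had 0.636, 0.718 and 0.613 CPM per 1000 in shZdhhc17 metastases, against 1.34, 1.07 and 1.41 in shSCR metastases. Sult2a8 had 0.173, 0.348 and 0.282 CPM per 1000 in shZdhhc17 metastases, against 1.70, 0.726 and 0.879 in shSCR metastases. In these 3 genes the gap between the groups exceeded the spread within the shZdhhc17 libraries. In Gsta3 and Sult2a8 the gap was smaller than the spread within the shSCR libraries. Against 16 pericentral hepatocyte markers in place of the general ones, 13 members (24.1%) were lower in every shZdhhc17 library, against 3.74% of all genes, 3 of the 23 hepatocyte markers (13%) and 5 of the 14 periportal genes (35.7%).

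A related question was put to edgeR with the mean log2 level of the hepatocyte markers as a covariate. Unlike the ratio, this fit estimated a slope for each gene and used mean log2 levels in place of a sum. The covariate overlapped but leaned with group, at 10.3, 10.9 and 10.6 in shZdhhc17 against 10.8, 10.4 and 9.35 in shSCR libraries. In that fit 14 of 54 members (25.9%) were lower at an unadjusted p under 0.05, against 5.35% of all genes, and 3 (5.56%) were higher, against 4.99% of all genes. The 3 higher members were Ugt1a7c, Gstp1 and Gstp3. A log2 fold change above 0 was found for 21 members (38.9%), against 52.4% of all genes. The lower ones were Gsta2, Gsta3, Gstt1, Gstt3, Ugt1a5, Ugt1a9, Ugt2a3, Ugt2b1, Ugt2b37, Sult2a1, Sult2a2, Sult2a5, Sult2a6 and Sult2a8. Of these, Ugt1a5 shares 64% of its 50-base stretches with other genes, Sult2a2 62.1%, Ugt1a9 62% and Gsta2 49.8%. Sult2a5 shares 34.5%, Sult2a1 33.2%, Ugt2b37 18.3% and the rest 12.5% or less, with none for Gstt1 and Ugt2b1. Members that share stretches may not be counted independently. No member passed the adjusted threshold, which 2 of all genes (0.0128%) did. Sult2a8 had a log2 fold change of -2.09 ± 0.30 (adjusted p = 0.166), Gsta3 one of -0.85 ± 0.13 (adjusted p = 0.210), Ugt2b1 one of -0.82 ± 0.15 and Gstt1 one of -0.71 ± 0.14 (both adjusted p = 0.237). For Gsta3 the standard error was 0.47 without the covariate. Of the hepatocyte markers 2 of 23 (8.7%) were lower and 3 (13%) higher in this fit, of the pericentral genes 3 of 16 (18.8%) were lower and 1 (6.25%) higher, and of the periportal genes 5 of 14 (35.7%) were lower and 1 (7.14%) higher. Leaving out each library in turn gave 13 to 16 lower members, against 3.45% to 7.2% of all genes, and 0 to 5 higher members, against 2.97% to 7.47% of all genes. The 0 came without shZdhhc17 replicate 3 and the 5 without shZdhhc17 replicate 1, while 1 was left without shZdhhc17 replicate 2, shSCR replicate 1 or shSCR replicate 2. With a pericentral covariate 16 members were lower, against 5.17% of all genes, and 1 higher, against 4.81%. Without shSCR replicate 2, Sult2a8 passed, with a log2 fold change of -2.41 and an adjusted p of 0.0419 (edgeR), as 1 of 7 genes past the threshold. In no other of these fits did a member pass. The part of hepatocyte zonation, neutrophil RNA and stromal RNA in these values was not tested.

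**Figure D4:**
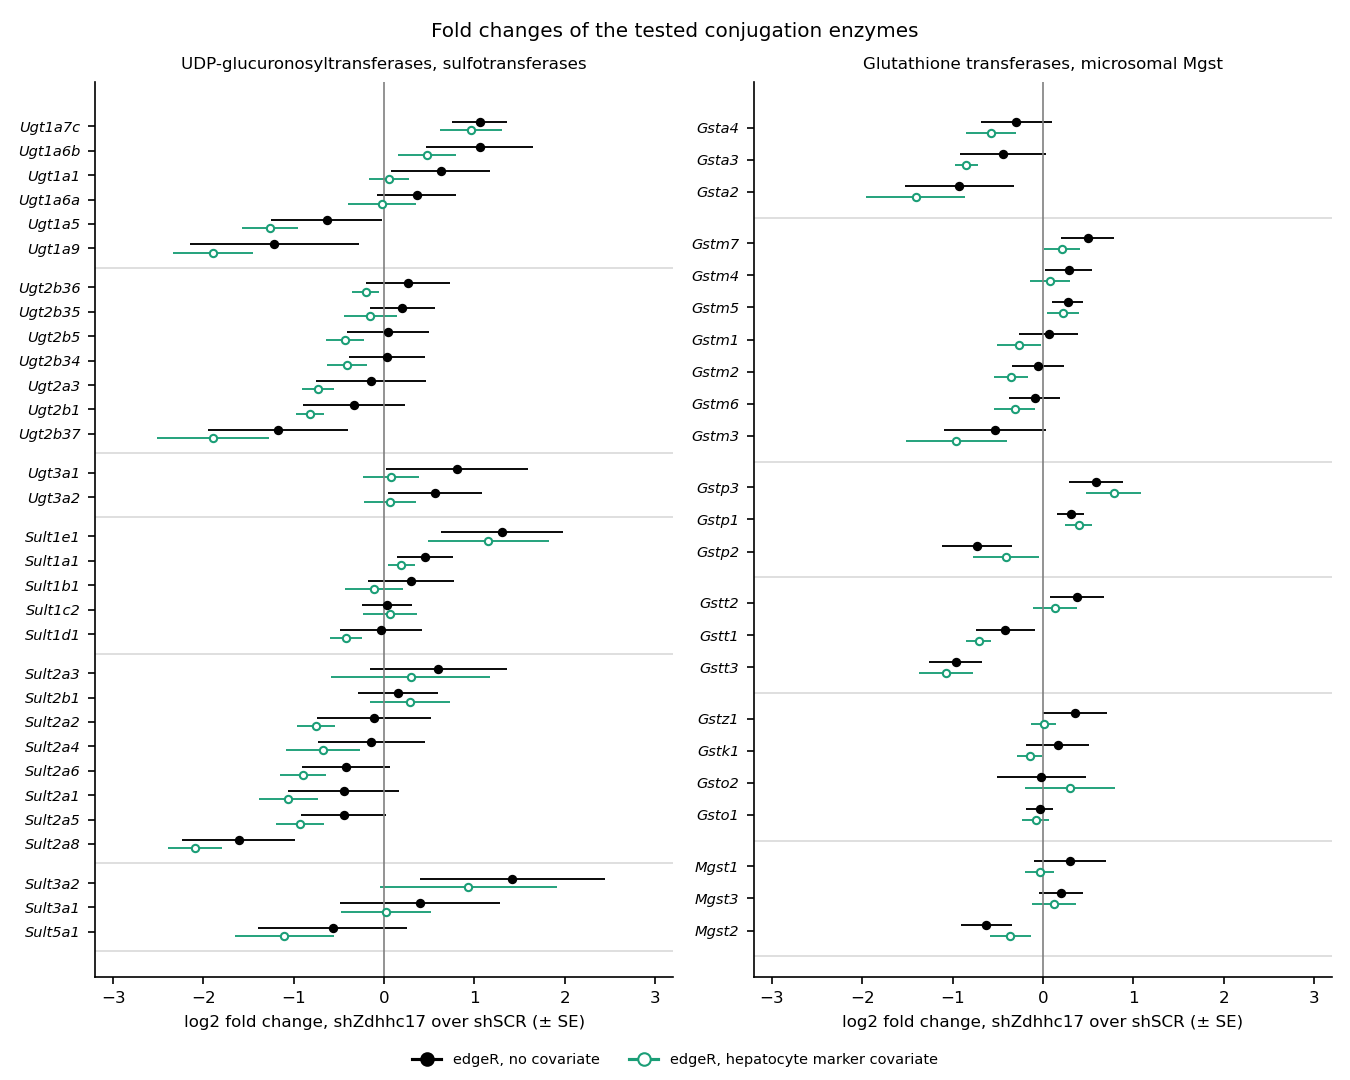
Log2 fold change of shZdhhc17 over shSCR with its standard error for the 54 tested members, by family, from edgeR without a covariate (filled black) and with the hepatocyte marker covariate (open green). With the covariate the standard errors of most members were smaller, and the Gsta, Gstt1 and Sult2a8 values lay further below 0, while Ugt1a7c and Gstp1 stayed above it.

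The rest of the pathway was examined in 5 lists, none with a gene past the threshold. Of all genes tested, 50.3% had a positive log2 fold change, and 4.72% were higher and 6.71% lower at an unadjusted p under 0.05 (edgeR). The groups did not overlap, with shZdhhc17 higher, for 7.48% of all genes. Of 26 tested genes that supply or recycle the cosubstrates glutathione, activated sulfate and UDP-glucuronic acid, 18 had a positive log2 fold change, the median was 0.34, and 1 was higher at an unadjusted p under 0.05. That gene was Slc7a11, the cystine importer for glutathione synthesis, with 16.0, 9.32 and 9.63 CPM in shZdhhc17 metastases, against 8.39, 8.11 and 5.64 CPM in shSCR metastases, a log2 fold change of 0.66 ± 0.27. Gss, the glutathione synthetase, had a log2 fold change of 0.40 ± 0.17, also without overlap between the groups. Of 19 xenobiotic receptors and regulators, 13 had a positive log2 fold change and 4 were higher at an unadjusted p under 0.05. Nr1i2, which encodes PXR, had 36.7, 42.0 and 35.9 CPM in shZdhhc17 metastases, against 23.9, 21.8 and 12.6 CPM in shSCR metastases, a log2 fold change of 0.97 ± 0.24 that did not pass (edgeR, adjusted p = 0.307). Rxra, its partner in binding DNA, had a log2 fold change of 0.66 ± 0.26.

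Of 24 NRF2 target genes outside these families, 18 had a positive log2 fold change, with a median of 0.15. At an unadjusted p under 0.05, 5 were higher and 1 lower. Their sum was higher without overlap, at 5499 to 5706 CPM in shZdhhc17 against 4939 to 5053 CPM in shSCR metastases. The sums of the other pathway lists overlapped. Cbr3, a carbonyl reductase, had a log2 fold change of 1.37 ± 0.37, and Me1, the cytosolic malic enzyme, one of -0.36 ± 0.12. Of 11 tested transporters in the export list, not all of which move conjugates, 9 had a positive log2 fold change. The median was 0.44, and 4 were higher and 1 lower at an unadjusted p under 0.05. Abcb4, the phosphatidylcholine pump of the bile canaliculus, had 176, 231 and 259 CPM in shZdhhc17 metastases, against 116, 110 and 60.9 CPM in shSCR metastases. Its log2 fold change was 1.22 ± 0.27, and that of Abcb1a, a multidrug exporter, was 1.21 ± 0.29, both without overlap and both short of the threshold (edgeR, adjusted p = 0.307). Of 26 other conjugating and deconjugating enzymes, 20 had a positive log2 fold change, the median was 0.19, and 3 were higher and 1 lower at an unadjusted p under 0.05. As3mt, the arsenite methyltransferase, had 50.5, 54.2 and 60.9 CPM in shZdhhc17 metastases, against 38.4, 29.1 and 28.6 CPM in shSCR metastases, a log2 fold change of 0.78 ± 0.16. Gusb, the lysosomal glucuronidase that removes glucuronic acid again, had a log2 fold change of 0.43 ± 0.11. Hepatocyte RNA differed between these libraries as given above. The fit with the hepatocyte covariate covered all 15567 genes tested, but its values for these 5 lists are not given here. The part of hepatocyte RNA in the values above was therefore not examined.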

How the data were processed

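RNA sequencing of polyadenylated RNA from dissected metastases used a stranded kit that marks strand with dUTP, per the labels. Per the submitters' processing notes, the build was GRCm39 and the tools, named without role, include STAR 2.6.1, HTSeq and DESeq2 1.34.0. Whether HTSeq counted by strand is not stated in the labels. The authors deposited raw counts per gene and a DESeq2 table of log2 fold changes, p-values and q-values.

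Counts were tested with edgeR 4.0.16 in R 4.3.3 (TMM, filterByExpr, robust glmQLFit and glmQLFTest, two-sided, Benjamini-Hochberg adjusted p under 0.05 over 15567 genes). The common dispersion was 0.0552 on 4 residual degrees of freedom in the fit without a covariate, and the covariate fits leave fewer. Standard errors derive from the fold change and its F statistic. Alternatives were DESeq2 1.42.0, limma 3.58.1 voom, other scalings and filters, the replicate number as a block, a hepatocyte covariate, and leaving out each library; a pericentral covariate and leaving out libraries within the covariate fit were added after seeing the data. Tested on simulated counts of shZdhhc17 against shSCR (15567 genes, 200 changed), 34% of the 2-fold and 90% of the 4-fold changes were recovered by edgeR, with 6 false calls. DESeq2 recovered 51% and 95%, with 43 false calls. These rates are over all changed genes. Recovery among the members, of which 17 varied by a factor of 5 or more, was not tested.

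The biological coefficient of variation between libraries was 0.235, which with 3 libraries per group limits the precision. Exon lengths and shared 50-base stretches come from GENCODE annotation on GRCm38. Named were, per family, the 2 members of highest mean level of at least 1 CPM, the 6 members of smallest p in each direction, and 2 genes of smallest p per pathway list; members in the covariate fit, the least variable members, and those not overlapping were named after their values were seen. Members and lists were chosen with earlier results of these data known.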

Additional observations from a re-analysis of the deposited data

How the results depend on the processing

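No member passed the adjusted threshold under any of the alternatives without a covariate, DESeq2 included, or with the planned hepatocyte covariate. The number of all genes past it was 201 with DESeq2 (95 higher, 106 lower), 2 with the hepatocyte covariate (both lower) and 3 without a filter on low counts (2 higher, 1 lower), and it ran from 0 to 1 (0 higher, 0 to 1 lower) when single libraries were left out. Members at an unadjusted p under 0.05 numbered 5 with DESeq2 (8.21% of all genes), 17 with the covariate (10.3% of all genes) and 2 to 10 when libraries were left out (5.9% to 18.2% of all genes), the 10 without shSCR replicate 3. The DESeq2 count covers only the 54 members tested with edgeR, Gsta1 not among them, while its share is over all 24167 genes. The members' median log2 fold change ran from -0.13 without shSCR replicate 3 to 0.27 without shSCR replicate 1. Signs turned for several genes. With the hepatocyte covariate, the log2 fold change was -0.27 for Gstm1, -0.038 for Mgst1, -0.41 for Ugt2b34 and -0.21 for Ugt2b36. With library totals alone, which moved the median of all genes to -0.13 and left 32.7% of genes with a positive value, it was -0.072 for Gstm1 and -0.088 for Ugt2b34. With voom it was 0.16 for Sult1d1. Leaving out single libraries gave -0.83 to 0.10 for Gsta3, -0.59 to 0.21 for Gsta4, -0.30 to 0.30 for Gstm1, -0.35 to 0.16 for Gstm2, -0.12 to 0.075 for Gsto1, -0.68 to 0.0046 for Gstt1, -0.021 to 0.76 for Mgst1, -0.43 to 0.26 for Sult1d1, -0.30 to 1.85 for Sult3a1, -0.33 to 1.95 for Sult3a2, -0.28 to 0.33 for Ugt2b34 and -0.10 to 0.66 for Ugt2b36. The cause was not tested. Ugt1a7c, Gstt3 and Sult2a8 kept their direction in each alternative.

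Replicate numbers were shared between the groups, but the deviations of same-numbered libraries correlated at -0.06, 0.32 and -0.05, and 1 of the 3 pairs correlated best with its own number, so the numbers were not taken to pair the samples. With the replicate number as a block, 0 genes and 0 members passed the threshold, 4 members had an unadjusted p under 0.05 (3 without the block), against 10.4% of all genes, and Sult1d1 had a log2 fold change of 0.14.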
